A study of Mus musculus with 36 samples.

Results

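Gemcitabine given alone was set against vehicle in orthotopic mouse pancreatic tumours. The comparison held all 4 tumours whose treatment label was Gemcitabine and 5 of the 6 tumours labelled Vehicle, which is 9 of the 36 tumours and 2 of the 8 arms of the series. Every tumour grew from implanted cells of a single line, KPfC BMF-A3, a pancreatic carcinoma line put into the pancreas of wild-type C57BL/6 mice with their own immune system, so the arms differ in drug and not in tumour genotype. Gemcitabine was injected into the peritoneal cavity at 25 mg/kg, 3 times a week, in mice of the Gemcitabine arm, and Vehicle mice received the vehicle only. Therapy began on day 10 after implantation and the mice were killed on day 35 in both arms. The labels give neither the animals' age nor sex, nor what the vehicle was. RNA of the whole tumour was counted on the nCounter PanCancer Immune Profiling Panel, which counts barcoded probes bound to 750 endogenous genes and 20 housekeeping genes without amplification.

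Vehicle replicate 3 was left out because of its lung transcripts, so the Vehicle tumours were selected on measured values. The lung epithelial chemokine gene Cxcl15 stood at 11754 scaled counts in that tumour and at 9.48 to 38.2 in the other 5 Vehicle tumours. Lamp3, a gene of lung type II cells and mature dendritic cells, stood at 2148 scaled counts there and at 7.04 to 19.4 in the other 5. A scaled count is the raw count divided by a factor that sets the geometric mean of the 20 housekeeping genes equal in all lanes. These values chose the tumours and are given as a description only.

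Gemcitabine is a deoxycytidine analogue: cells phosphorylate it and build it into DNA, where it stops chain extension, and its diphosphate blocks ribonucleotide reductase. It is a standard drug for pancreatic cancer and, like other antimetabolites, it also lowers the output of the bone marrow, which makes neutrophils, monocytes, platelets and red cells. Pancreatic tumours are rich in myeloid cells, which sense damaged cells and microbes through surface lectins and toll-like receptors, and usually hold few lymphocytes.

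Total counts ran from 253283 to 552876 in Gemcitabine tumours and from 359506 to 490750 in Vehicle tumours, and did not differ by more than the spread between tumours (exact permutation test, two-sided p = 0.635, n = 4 and 5). Gemcitabine replicates 1 and 2 had the lowest totals, 253283 and 264825, and shared a cartridge (a set of lanes run as 1 cassette) with all Vehicle tumours. Gemcitabine replicates 3 and 4, with totals of 455403 and 552876, were on another cartridge. No 2 tumours of an arm were duplicates: the most similar pair, Vehicle replicates 1 and 4, had a chi-square of 16.1 per gene, where counting noise alone gives about 1. Epithelial transcripts were abundant in both arms, with Cdh1 (E-cadherin) at 1891 to 2797 scaled counts in Gemcitabine tumours and 1819 to 3109 in Vehicle tumours. Of the 2 pancreatic secretory genes on the panel, Dmbt1 stood at 33573 to 39576 scaled counts in Gemcitabine tumours and 9841 to 51392 in Vehicle tumours, while Pla2g1b was above background in 1 of 4 Gemcitabine and 2 of 5 Vehicle tumours. The tumours are called replicates because the labels list them as separate samples. In bulk tumour RNA, fewer cells of a type and less RNA per cell cannot be told apart.

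Gemcitabine replicate 1 stood apart from the other 3 tumours of its arm. The 19 lymph node or spleen markers on the panel summed to 1661 scaled counts in that tumour, to 529, 379 and 359 in Gemcitabine replicates 2 to 4, and to 337 to 615 in Vehicle tumours. Of these markers, 2 were above background in no Gemcitabine tumour and 8 in no Vehicle tumour. The main results that rest on Gemcitabine replicate 1 are given with and without it, and the part these markers play in them was not tested.

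No single gene passed the test for a difference between Gemcitabine and Vehicle tumours. The test was edgeR's quasi-likelihood test over 577 genes, each above the lane's background (the mean of the negative controls plus 2 SD) in at least 4 of the 9 tumours. It called 0 genes at a Benjamini-Hochberg adjusted p under 0.05 (0% of those tested), and the smallest adjusted p was 0.194, for Mpo. At an unadjusted p under 0.05 it gave 18 higher genes (3.12% of those tested) and 9 lower genes (1.56%), so 27 in either direction (4.68%). Of these 27, 10 kept an unadjusted p under 0.05 without Gemcitabine replicate 1 and 17 to 25 without any other single tumour, and 5 kept it whichever tumour was left out: Mpo, Clec7a, Isg15, Itgae and Il3ra. limma on log2 values called 0 genes as well, with 25 genes under an unadjusted p of 0.05 at a pseudocount of 1 and 19 at a pseudocount of 20, and DESeq2 called 1, Mpo. The median log2 fold over all 577 genes was 0.04 and the median standard error was 0.32. Of the 577 folds 311 were above 0 (53.9%), the share to set beside the counts of each gene list below. All folds below are log2 of Gemcitabine over Vehicle, with the standard error of the fit, and describe genes that missed the adjusted threshold.

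**Figure D1:**
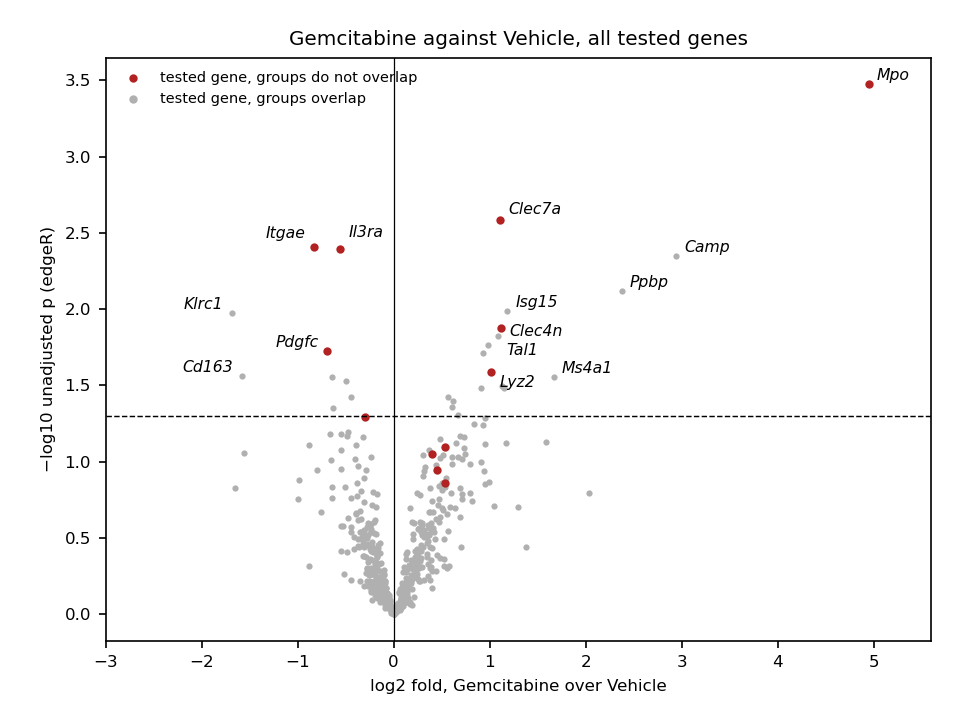
Log2 fold of Gemcitabine over Vehicle (x axis) against −log10 of the unadjusted edgeR p (y axis) for the 577 tested genes. Red points are the 12 genes whose Gemcitabine and Vehicle values do not overlap. The dashed line marks an unadjusted edgeR p of 0.05, and no gene passed after adjustment.

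In 8 genes (1.39% of those tested) every Gemcitabine tumour lay above every Vehicle tumour, and in 4 genes (0.693%) every Gemcitabine tumour lay below. The higher genes were Clec7a, Clec4n, Lyz2, Mpo, Syk, Oas2, Ccrl2 and Prkcd, and the lower ones were Itgae, Il3ra, Pdgfc and Reps1. Prkcd falls outside the rule by which genes are named and was picked after its values were seen.

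A pair of lectin receptors that recognise fungal and other sugars, Clec7a and Clec4n, were both higher in all Gemcitabine tumours, while the mannose receptor Mrc1, which also binds such sugars, had a fold of -0.52 ± 0.46. Clec7a, which encodes Dectin-1, a receptor for beta-glucan on macrophages, dendritic cells and neutrophils, stood at 95.8, 176, 109 and 106 scaled counts in Gemcitabine replicates 1 to 4, against 56.2, 61.95, 60.96, 50.2 and 52.6 in Vehicle replicates 1, 2, 4, 5 and 6. The lowest Gemcitabine tumour was thus well above the highest Vehicle tumour, and the 5 Vehicle tumours were close together. The fold of Clec7a was 1.11 ± 0.34 (edgeR, unadjusted p = 0.00260, adjusted p = 0.519), and it was 1.27 within the shared cartridge and 1.20 without Gemcitabine replicate 1. Clec4n, which encodes Dectin-2, a receptor for mannose-rich sugars, stood at 230.4, 332, 174 and 155 scaled counts in the Gemcitabine tumours and at 98.5, 109, 139, 79.2 and 84.96 in the Vehicle tumours. The gap between the groups was narrower here, with Gemcitabine replicate 4 next to Vehicle replicate 4. Clec4n had a fold of 1.12 ± 0.43 (unadjusted p = 0.0133, adjusted p = 0.851), 1.46 within the shared cartridge and 1.10 without Gemcitabine replicate 1. Without Gemcitabine replicate 2, the highest tumour, the fold of Clec4n was 0.87 (unadjusted p = 0.0666).

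Genes that act after these receptors were described as a list put together once the values were known, so its counts are no evidence of their own. Of its 8 genes on the panel 7 were tested, 6 of them with a fold above 0, and the median fold was 0.54 beside 0.04 over all genes. Syk, the kinase that Dectin-1 and Dectin-2 engage, stood at 126, 96.2, 98.2 and 84.9 scaled counts in Gemcitabine tumours and at 62.7, 81.4, 57.2, 73.1 and 74.4 in Vehicle tumours. Its groups did not overlap, although the fold was only 0.54 ± 0.35 (unadjusted p = 0.137). Prkcd, the protein kinase C that Syk activates, ran from 350.4 to 469.8 in Gemcitabine tumours and from 290.5 to 322 in Vehicle tumours, a fold of 0.40 ± 0.23 (unadjusted p = 0.0884). The adaptor chain gene Fcer1g had 0.41 ± 0.32, the kinase Btk 0.73 ± 0.40 and the adaptor Bcl10 -0.22 ± 0.23, while Card9, the adaptor that links Syk to NF-kB, was near background in both groups and was not tested.

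Lyz2, which encodes the lysozyme of macrophages and neutrophils, was the most abundant of the 8 higher genes by count, although counts of different probes are not on 1 scale of abundance. It stood at 4350, 8230, 3947 and 3620 scaled counts in Gemcitabine tumours and at 1993, 2909, 2845, 2467 and 2267 in Vehicle tumours. Gemcitabine replicate 2 was far above the other 3, which lay close to each other and still above all Vehicle tumours. The fold was 1.01 ± 0.43 (unadjusted p = 0.0260, adjusted p = 0.910) and 1.33 within the shared cartridge, but 0.67 (unadjusted p = 0.152) without Gemcitabine replicate 2. Vehicle replicate 3, left out for its lung transcripts, held 38056 scaled counts of Lyz2, and with it in the Vehicle group the fold turned to -0.74. Ccrl2, an atypical receptor that binds the chemoattractant chemerin on myeloid cells, ran from 25.4 to 36.2 in Gemcitabine tumours and from 15.3 to 23.8 in Vehicle tumours, with a fold of 0.45 ± 0.28 (unadjusted p = 0.113). With Vehicle replicate 3 included it too turned, to -0.91.

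Neutrophil granule genes gave the largest folds of the comparison, and 2 tumours carried them. Mpo encodes myeloperoxidase and Elane encodes neutrophil elastase, enzymes that neutrophil precursors pack into their primary granules. PU.1 is a transcription factor of myeloid cells, and the 8 letters GAGGAAGT, which match its binding motif, were looked for on both strands of the RefSeq promoter windows, from 250 bases before to 50 bases after the gene start (build GRCm38.p6). The windows of Mpo and Elane are shown because both genes are high in the same tumours and both hold the letters, printed in capitals.
Mpo, chr11:87793534-87793833, plus strand: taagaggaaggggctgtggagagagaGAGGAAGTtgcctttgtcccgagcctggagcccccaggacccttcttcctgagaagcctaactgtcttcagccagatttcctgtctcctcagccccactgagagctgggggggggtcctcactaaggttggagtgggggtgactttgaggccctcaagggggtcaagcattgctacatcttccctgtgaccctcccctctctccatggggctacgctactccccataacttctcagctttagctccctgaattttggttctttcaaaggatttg
Elane, chr10:79886062-79886361, plus strand: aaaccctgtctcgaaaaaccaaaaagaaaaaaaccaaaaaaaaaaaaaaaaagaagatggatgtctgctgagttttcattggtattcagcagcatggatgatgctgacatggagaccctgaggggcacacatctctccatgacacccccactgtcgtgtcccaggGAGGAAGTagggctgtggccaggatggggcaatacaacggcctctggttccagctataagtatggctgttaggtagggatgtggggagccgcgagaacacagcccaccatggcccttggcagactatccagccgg
The letters start 224 bases before the gene start in Mpo and 85 bases before it in Elane, both on the strand of the gene. They occur in 3.20% of all 32851 promoter windows. The window of Camp, which was high in the same tumours, holds no match, nor do those of Lyz2 and Clec7a, which says only that the letters are not in those windows. The motif was chosen with the values known, and a match is a description of the letters only.

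Mpo stood at 945, 141, 13 and 26.02 scaled counts in Gemcitabine replicates 1 to 4, against 11.7, 8.76, 7.53, 7.04 and 9.71 in Vehicle replicates 1, 2, 4, 5 and 6. It was above background in 4 of 4 Gemcitabine tumours and in 0 of 5 Vehicle tumours, so it was tested only through the arm in which it is high. Gemcitabine replicate 1 was far above the rest, replicate 2 came next, and replicates 3 and 4 lay close to background. Means were 281 ± 446 in Gemcitabine and 8.94 ± 1.85 in Vehicle tumours (SD, n = 4 and 5), and the ratio of geometric means, with each Vehicle tumour set to at least its background threshold, put Mpo at least 5.06-fold higher. The fitted fold was 4.95 ± 1.23 (edgeR, unadjusted p = 3.35e-04, adjusted p = 0.194), and it was 2.69 without Gemcitabine replicate 1. Within the shared cartridge, where both high tumours sat, the fold was 5.90 (adjusted p = 0.0237), and DESeq2 gave 4.97 ± 1.04 (adjusted p = 0.000967). Over all alternatives the adjusted p of Mpo ran from 0.000967 to 0.998.

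Elane was above background in 3 Gemcitabine tumours and no Vehicle tumour, too few to be tested. It stood at 495, 109, 10.1 and 20.4 scaled counts in Gemcitabine tumours, against 10.2, 6.88, 11.3, 13.2 and 16.2 in Vehicle tumours, and was at least 3.57-fold higher by the same bound. Ctsg, the cathepsin of the same granules, was named after its values were seen. It stood at 155, 31.2, 7.95 and 16.7 scaled counts in Gemcitabine tumours and at 6.56, 11.3, 6.02, 14.97 and 8.90 in Vehicle tumours. In all 3 granule genes Gemcitabine replicate 1 was highest, replicate 2 next and replicate 3 lowest of the arm.

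Among genes of later neutrophil stages, Camp was uneven in the same way, while S100a8 and Cybb were less so. Camp, which encodes the antimicrobial peptide of secondary granules, stood at 247, 91.2, 9.39 and 29.1 scaled counts in Gemcitabine tumours and at 10.2, 10.01, 13.5, 7.04 and 19.4 in Vehicle tumours. Vehicle replicate 6 was the only Vehicle tumour above background for Camp, so the gene was tested mainly through the arm in which it is high. Gemcitabine replicate 3 lay among the Vehicle tumours, and the fold was 2.94 ± 0.96 (unadjusted p = 0.00450, adjusted p = 0.519), or 1.79 without Gemcitabine replicate 1. S100a8, the alarmin of mature neutrophils, stood at 3490, 1148, 636 and 608 scaled counts in Gemcitabine tumours and at 159, 508, 399.6, 1087 and 295 in Vehicle tumours. Only Vehicle replicate 5 reached the range of the Gemcitabine tumours, and the fold was 1.59 ± 0.86 (unadjusted p = 0.0741), or 0.70 without Gemcitabine replicate 1. Cybb, the oxidase subunit of phagocytes, ran from 116 to 183 in Gemcitabine tumours and from 78.3 to 136 in Vehicle tumours, a fold of 0.61 ± 0.29 (unadjusted p = 0.0397). Without Gemcitabine replicate 1 the fold of Cybb was 0.52 (unadjusted p = 0.105). Its unadjusted p was also above 0.05 without Gemcitabine replicate 2 or 3, or without Vehicle replicate 1, 4 or 6. Of the 17 neutrophil genes on the panel 13 were tested and 12 had a fold above 0, with 3 higher at an unadjusted p under 0.05 and none lower. Over all tested genes 53.9% had a fold above 0 and 3.12% were higher at an unadjusted p under 0.05. The median fold of the tested members was 0.35, and 0.26 without Gemcitabine replicate 1. Lcn2, which tumour cells also make, was the exception with -0.51 ± 0.85.

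**Figure D2:**
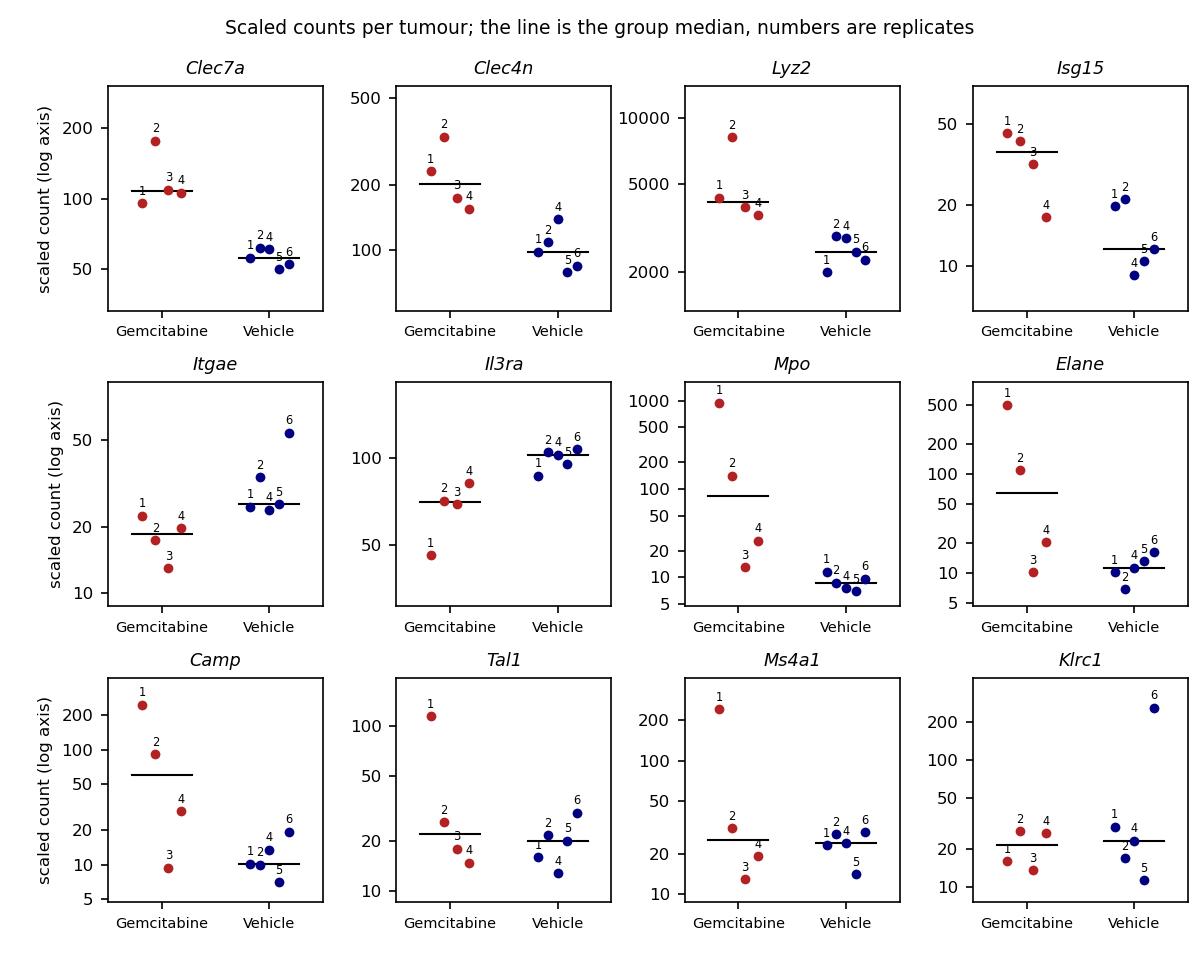
Scaled counts (log y axis) of 12 genes in each tumour, Gemcitabine in red on the left and Vehicle in dark blue on the right of each panel, with replicate numbers and the group median as a line. Clec7a, Clec4n, Lyz2 and Mpo are higher and Itgae and Il3ra lower without overlap, while Tal1, Ms4a1 and Klrc1 differ through 1 tumour each.

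All 5 chemokine genes that draw neutrophils had a fold above 0, with a median of 0.58, or 0.77 without Gemcitabine replicate 1. Ppbp, a chemokine stored in platelets, accounted for the largest, at 480.2, 106, 35.4 and 35.9 scaled counts in Gemcitabine tumours and 36.5, 30.04, 30.1, 25.5 and 34.8 in Vehicle tumours. Gemcitabine replicates 3 and 4 lay within the Vehicle range, so its fold of 2.38 ± 0.83 (unadjusted p = 0.00766) came down to 0.89 without Gemcitabine replicate 1. The others are made by tumour, stromal and myeloid cells: Cxcl3 had 0.80 ± 0.48, Cxcl2 0.57 ± 0.52, Cxcl1 0.58 ± 0.82 and Cxcl5 0.48 ± 0.59. None of these 4 had an unadjusted p under 0.05.

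Genes of red cell and platelet precursors and of B cells were highest in Gemcitabine replicate 1. Gemcitabine replicate 2 followed at a distance, just above all Vehicle tumours for Ms4a1 and Ikzf1 and inside their range for Tal1. Tal1, a transcription factor of red cell and platelet precursors, stood at 115, 26.2, 18.1 and 14.9 scaled counts in Gemcitabine tumours and at 16.04, 21.9, 12.8, 20.2 and 29.9 in Vehicle tumours. Its fold was 1.08 ± 0.42 (unadjusted p = 0.0150) with replicate 1 and -0.06 without it. Tal1 was called within the shared cartridge, at 1.81 (adjusted p = 0.0356), where replicate 1 is 1 of only 2 Gemcitabine tumours, and its adjusted p ran from 0.0301 to 0.999 over the alternatives. Icam4, an adhesion protein of red cells, was named after its values were seen and stood at 71.1, 18.7, 7.22 and 16.7 scaled counts in Gemcitabine tumours and 17.5, 8.76, 12.04, 15.8 and 20.2 in Vehicle tumours. Its fold was 0.91 ± 0.41, and -0.08 without replicate 1.

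Ms4a1, the B cell surface gene for CD20, stood at 243, 31.2, 13 and 19.2 scaled counts in Gemcitabine tumours and at 23.3, 28.2, 24.1, 14.1 and 29.1 in Vehicle tumours. The fold of 1.67 ± 0.72 (unadjusted p = 0.0281) became -0.20 without Gemcitabine replicate 1. Ikzf1, a transcription factor of lymphocyte development, stood at 97.97, 27.5, 18.1 and 21.1 in Gemcitabine tumours and at 16.8, 26.3, 12.04, 14.97 and 21.8 in Vehicle tumours, a fold of 1.13 ± 0.50, or 0.25 without replicate 1. Only 11 of the 24 B cell and plasma cell genes on the panel were tested, 9 with a fold above 0, and their median of 0.54 became 0.07 without replicate 1. The lymph node or spleen list behaved alike, with 7 of 9 tested genes above 0 and a median of 0.55 with that tumour, and 1 of 9 above 0 and a median of -0.20 without it. Tnfrsf14, the receptor HVEM found on many leukocytes, was highest in the same tumour, at 179.8, 78.7, 49.1 and 39.7 scaled counts in Gemcitabine tumours and 21.9, 65.7, 28.6, 44.9 and 55.8 in Vehicle tumours, and its fold of 0.99 ± 0.39 became 0.35.

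Among the 18 genes with an unadjusted p under 0.05 that were higher, Gemcitabine replicate 1 was the highest tumour of its arm in 12, replicate 2 in 5, replicate 3 in 1 and replicate 4 in 0. Replicate 1 lay above every Vehicle tumour in 16 of the 18, replicate 2 in 15, replicate 3 in 10 and replicate 4 in 7.

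**Figure D3:**
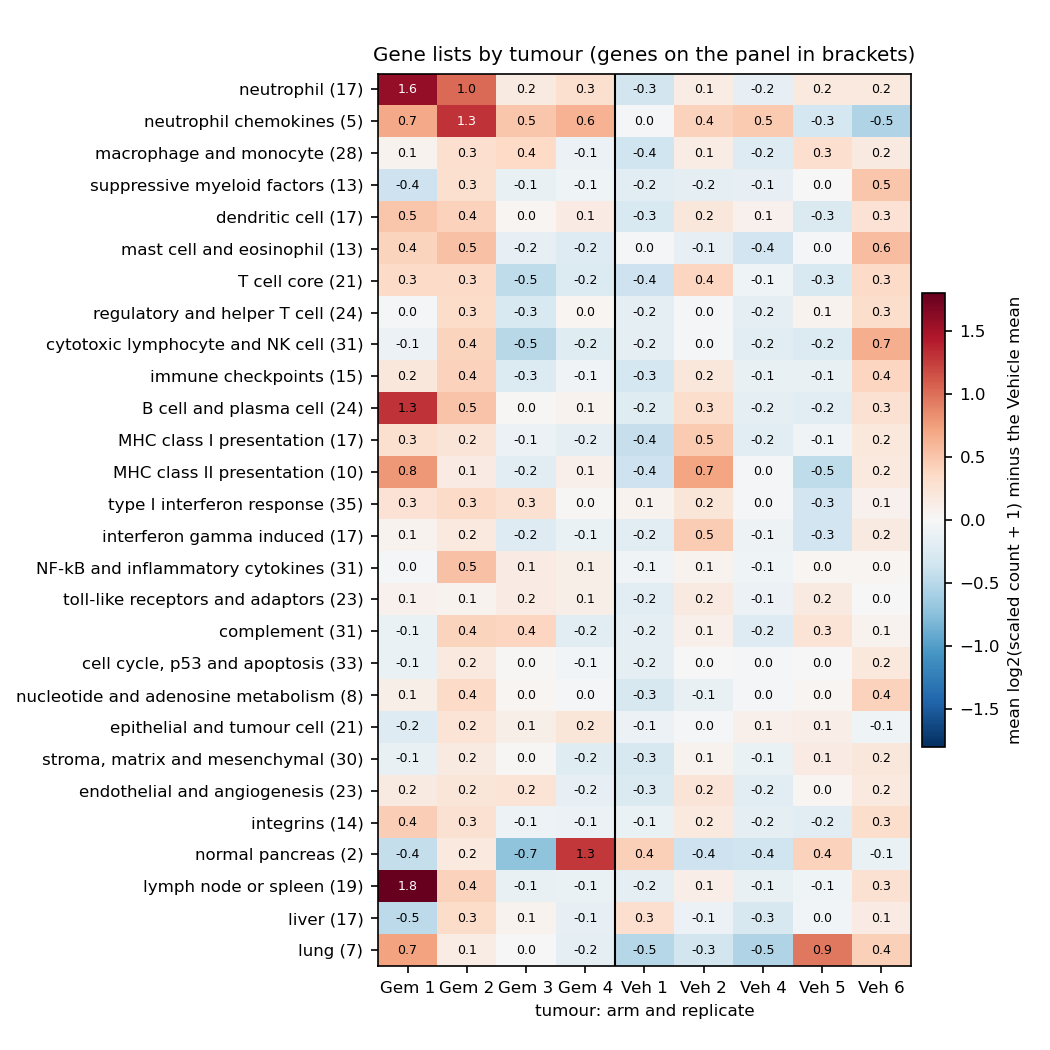
Mean log2(scaled count + 1) of each gene list (rows, with the number of genes on the panel) in each tumour (columns, Gemcitabine left of the line, Vehicle right of it), minus the Vehicle mean. Gemcitabine replicate 1 stands at 1.81 for lymph node or spleen markers and 1.58 for neutrophil genes, and replicate 2 at 1.03 for neutrophil genes.

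Several genes of the type I interferon response had folds above 0, led by Isg15, the ubiquitin-like protein that interferon induces. The promoter window of Isg15 is shown because it carries the letters GAAANNGAA of the interferon-stimulated response element (ISRE) 3 times in an overlapping run, in capitals.
Isg15, chr4:156200769-156201068, minus strand: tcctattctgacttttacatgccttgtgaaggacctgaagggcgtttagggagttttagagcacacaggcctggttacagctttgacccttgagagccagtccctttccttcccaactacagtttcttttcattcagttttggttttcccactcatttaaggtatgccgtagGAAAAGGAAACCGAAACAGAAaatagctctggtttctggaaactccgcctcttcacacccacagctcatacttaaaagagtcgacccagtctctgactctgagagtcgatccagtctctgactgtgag
The 3 matches start 78, 72 and 66 bases before the gene start, on the strand of the gene, and 8.56% of the 32851 promoter windows hold these letters on either strand. This motif was also chosen with the values known. The windows of Cmpk2 and Ifit2 hold no match, which says only that these letters are not in these windows.

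Isg15 stood at 45.2, 41.2, 31.8 and 17.3 scaled counts in Gemcitabine tumours, against 19.7, 21.3, 9.03, 10.6 and 12.1 in Vehicle tumours. Gemcitabine replicates 1 to 3 were above all Vehicle tumours and replicate 4 was among them, and only 2 of 5 Vehicle tumours were above background. The fold was 1.18 ± 0.43 (edgeR, unadjusted p = 0.0103, adjusted p = 0.762), and 1.01 without Gemcitabine replicate 1. Ifi27, an interferon-induced membrane protein gene, stood at 537, 531, 512 and 392 scaled counts in Gemcitabine tumours and at 252, 405, 353, 254 and 283 in Vehicle tumours, with only Gemcitabine replicate 4 inside the Vehicle range. Its fold was 0.67 ± 0.33 (unadjusted p = 0.0495), or 0.63 (unadjusted p = 0.0911) without Gemcitabine replicate 1. The unadjusted p of Ifi27 was also above 0.05 without Gemcitabine replicate 2 or 3, or without Vehicle replicate 1, 4, 5 or 6. Ifit2, which blocks translation of viral RNA, had 0.61 ± 0.29 (unadjusted p = 0.0436) and Ifit3, its partner, 0.94 ± 0.47 (unadjusted p = 0.0575). Without Gemcitabine replicate 3 the fold of Ifit2 was 0.45 (unadjusted p = 0.166). The unadjusted p of Ifit2 was also above 0.05 without Gemcitabine replicate 1, or without Vehicle replicate 1, 4, 5 or 6.

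Oas2, a sensor of double-stranded RNA, stood at 38.8, 39.98, 48.4 and 34.1 scaled counts in Gemcitabine tumours and at 18.96, 31.9, 33.9, 22.01 and 32.4 in Vehicle tumours. The groups did not overlap, although Gemcitabine replicate 4 and Vehicle replicate 4 were nearly equal, and the fold was 0.53 ± 0.29 (unadjusted p = 0.0806). Cmpk2, a mitochondrial kinase of pyrimidine nucleotides that interferon induces, stood at 77.5, 42.5, 33.2 and 24.8 in Gemcitabine tumours and at 32.8, 18.8, 20.3, 16.7 and 26.7 in Vehicle tumours, a fold of 0.93 ± 0.38 (unadjusted p = 0.0193), or 0.52 (unadjusted p = 0.189) without Gemcitabine replicate 1. Of the 35 type I interferon genes on the panel 27 were tested, 18 had a fold above 0, 3 were higher and none lower at an unadjusted p under 0.05, and the median was 0.18 with and without Gemcitabine replicate 1. The share above 0 was 66.7%, beside 53.9% of all tested genes, of which 3.12% were higher at an unadjusted p under 0.05. The interferon genes on the list, Ifnb1, Ifna1, Ifna2 and Ifna4, did not pass the filter, and neither did the interferon-induced gene Mx1. Ifnb1 and Mx1 were above background in none of the 9 tumours. With Vehicle replicate 3 included, the folds of Oas2 and Cmpk2 turned to -0.10 and -0.16.

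Genes that interferon gamma induces were spread around 0. Of 14 tested, 6 had a fold above 0 and none had an unadjusted p under 0.05, with a median of -0.11. Cxcl9, a T cell chemokine, had a fold of -1.56 ± 0.88 (unadjusted p = 0.0877) that rests on Vehicle replicate 2, the only tumour above 37.2 scaled counts, at 156. The Gemcitabine tumours ran from 10.1 to 19.4 scaled counts of Cxcl9. Cxcl10, from the same family, had -0.27 ± 0.52.

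The 4 genes lower without overlap were Itgae, Il3ra, Pdgfc and Reps1. Itgae encodes the integrin CD103 of tissue-resident T cells and of cross-presenting dendritic cells. It stood at 22.6, 17.5, 13 and 19.8 scaled counts in Gemcitabine tumours, against 24.8, 33.8, 24.1, 25.5 and 54.2 in Vehicle tumours. The levels were near background, which 3 of 4 Gemcitabine and 5 of 5 Vehicle tumours exceeded, and Gemcitabine replicate 1 was close to Vehicle replicate 4. The fold was -0.83 ± 0.27 (edgeR, unadjusted p = 0.00390, adjusted p = 0.519), -0.95 without Gemcitabine replicate 1 and -0.69 within the shared cartridge.

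Il3ra, the receptor chain for interleukin 3 on basophils and other myeloid cells, stood at 46.3, 71.2, 69.4 and 81.8 scaled counts in Gemcitabine tumours and at 86.8, 105, 102, 95.1 and 107 in Vehicle tumours. Both groups were tight apart from Gemcitabine replicate 1, which was the lowest. The fold was -0.56 ± 0.18 (unadjusted p = 0.00407, adjusted p = 0.519), and -0.42 without that tumour. Pdgfc, a growth factor for fibroblasts, stood at 244, 282, 366 and 364 in Gemcitabine tumours and at 384, 439.9, 370.3, 849.5 and 502 in Vehicle tumours. Gemcitabine replicates 3 and 4 almost touched Vehicle replicate 4, and the fold was -0.69 ± 0.28 (unadjusted p = 0.0189), or -0.43 (unadjusted p = 0.120) without Vehicle replicate 5. Reps1, a gene of endocytosis, ran from 81.8 to 109.7 in Gemcitabine tumours and from 111 to 122 in Vehicle tumours, a fold of -0.30 ± 0.15 (unadjusted p = 0.0512).

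The largest negative folds rested on 1 or 2 Vehicle tumours. Klrc1, the NK cell receptor NKG2A, stood at 16.1, 27.5, 13.7 and 26.6 scaled counts in Gemcitabine tumours and at 29.9, 16.9, 23.3, 11.4 and 257 in Vehicle tumours. Vehicle replicate 6 alone was high, and the fold of -1.68 ± 0.62 (unadjusted p = 0.0106) became 0.03 without it. Cd163, the haemoglobin scavenger receptor of macrophages, stood at 18.3, 34.99, 24.6 and 9.29 in Gemcitabine tumours and at 18.2, 18.8, 21.1, 176 and 89 in Vehicle tumours. Vehicle replicates 5 and 6 were high, and the other 3 Vehicle tumours lay within the Gemcitabine range, so the fold of -1.58 ± 0.68 (unadjusted p = 0.0275) became -0.77 without Vehicle replicate 5. Among the 9 genes lower at an unadjusted p under 0.05, the highest Vehicle tumour was replicate 6 in 5, replicate 5 in 3 and replicate 1 in 1. Dusp6, a phosphatase that dampens ERK signalling, had -0.49 ± 0.22, the adaptor Traf6 -0.45 ± 0.21, the interleukin 18 receptor chain Il18rap -0.63 ± 0.30 and Aire, the regulator of self-antigen expression, -0.64 ± 0.28. Tnfsf4, the ligand of the T cell receptor OX40, had -0.48 ± 0.25 and missed an unadjusted p of 0.05. Tfrc, the transferrin receptor of dividing cells, stood at 669.7, 217, 303 and 255 scaled counts in Gemcitabine tumours and at 543, 404, 522, 467 and 916 in Vehicle tumours, a fold of -0.66 ± 0.34 (unadjusted p = 0.0658). Gemcitabine replicates 2 to 4 were below all Vehicle tumours while replicate 1 was above 4 of them, and without it the fold of Tfrc was -1.14.

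Lymphocyte genes were at the edge of detection in both groups. Of the T cell core genes 6 of 21 on the panel were tested, of the regulatory and helper T cell genes 9 of 24, and of the cytotoxic lymphocyte and NK cell genes 10 of 31. Cd8a, Foxp3 and Gzmb, which mark cytotoxic T cells, regulatory T cells and armed killer cells, were above background in none of the 9 tumours, and Cd4 in 1 of 4 Gemcitabine and 1 of 5 Vehicle tumours. Pdcd1, the gene of the checkpoint receptor PD1, was above background in 0 of 4 Gemcitabine and 1 of 5 Vehicle tumours. A difference in these genes was not detectable at this depth. Cd3d, a chain of the T cell receptor complex that was measurable in every tumour, stood at 30.5 ± 10.6 scaled counts in Gemcitabine tumours and at 30.1 ± 9.33 in Vehicle tumours (SD, n = 4 and 5). The median folds of the tested genes were 0.00, -0.09 and -0.14 for the 3 lists in that order. Cd28, the co-stimulatory receptor, had -0.55 ± 0.29 (unadjusted p = 0.0658), and only Klrc1 among the 25 tested genes of these lists had an unadjusted p under 0.05.

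Macrophage and monocyte genes were divided. Of 28 tested, 18 of 28 had a fold above 0, with a median of 0.20, and only Lyz2 was higher and only Cd163 lower at an unadjusted p under 0.05. Cd68, a lysosomal gene of macrophages, stood at 270.2, 287, 237 and 166 scaled counts in Gemcitabine tumours and at 120.3, 199, 146, 232 and 159 in Vehicle tumours, a fold of 0.49 ± 0.28 (unadjusted p = 0.0948). Cx3cr1, the fractalkine receptor of monocytes, had 0.73 ± 0.39 (unadjusted p = 0.0687). Mrc1, the mannose receptor of repair-type macrophages, had -0.52 ± 0.46, with Vehicle replicates 5 and 6 at 462 and 640.0 scaled counts and the Gemcitabine tumours at 146 to 309.9. The kinases Axl and Mertk, which clear dying cells, had -0.13 ± 0.29 and -0.08 ± 0.32.

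The factors with which myeloid cells restrain T cells gave 4 of 10 folds above 0 and a median of -0.23. Arg2 and Arg1, the arginine-degrading enzymes, had -0.65 ± 0.38 and -0.31 ± 0.69, and Cd274, the gene of the ligand PD-L1, had 0.30 ± 0.26. None had an unadjusted p under 0.05. Dendritic cell genes gave 11 of 14 folds above 0 and a median of 0.30, or 9 of 14 and 0.18 without Gemcitabine replicate 1, with Clec4n and Clec7a, which belong to this list too, as the only genes higher and Itgae as the only gene lower at an unadjusted p under 0.05. Cd86, a co-stimulatory ligand, had 0.50 ± 0.33. Mast cell and eosinophil genes gave 3 of 8 folds above 0 and a median of -0.06.

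**Figure D4:**
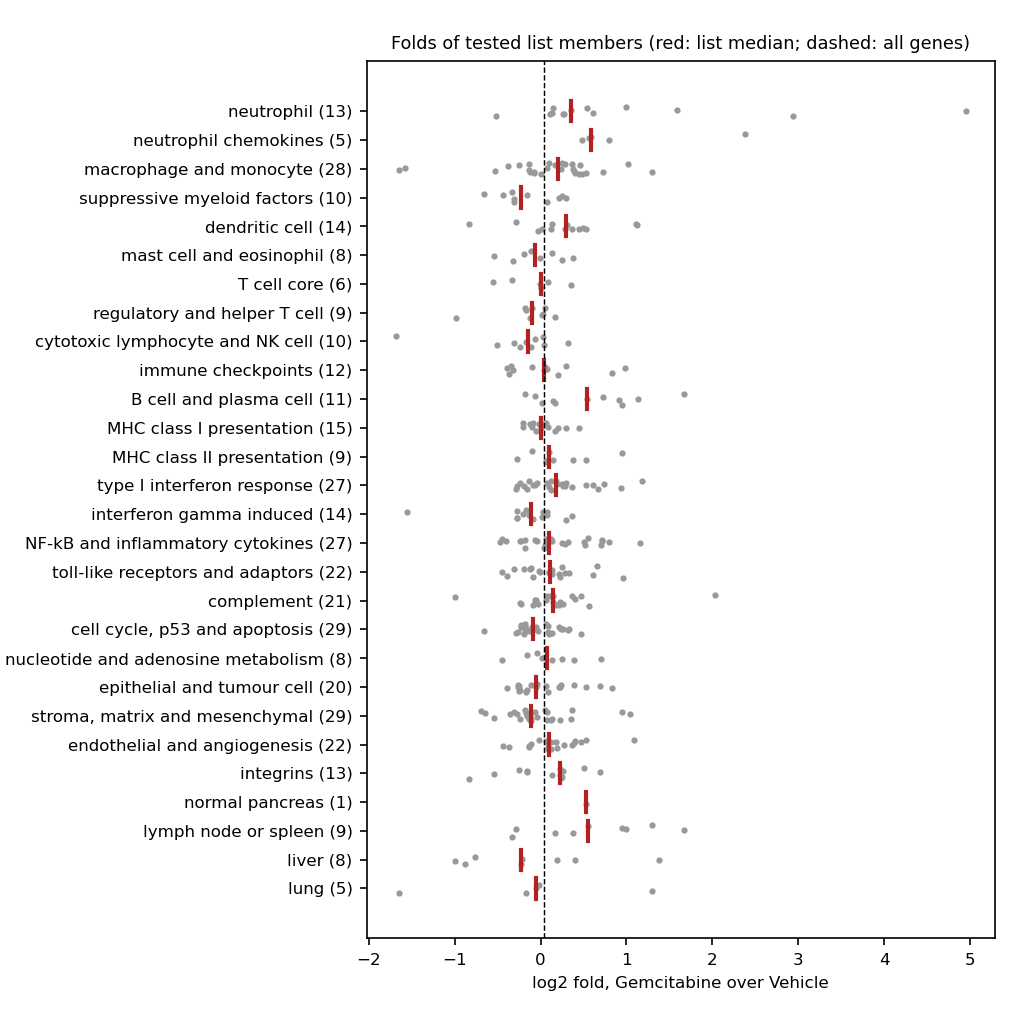
Log2 folds of Gemcitabine over Vehicle (x axis) for the tested members of each list (rows, with the number tested), 1 grey point per gene, the list median in red and the median of all tested genes, 0.04, as a dashed line. The neutrophil chemokine, lymph node or spleen, and B cell medians lie farthest to the right among the plotted lists of at least 5 tested genes.

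Antigen presentation genes had median folds near 0. MHC class I genes gave 8 of 15 folds above 0 with a median of 0.01, or 3 of 15 and -0.10 without Gemcitabine replicate 1, and H2-K1, a class I heavy chain, had 0.08 ± 0.52. MHC class II genes gave 7 of 9 above 0 with a median of 0.10, or 3 of 9 and -0.05 without Gemcitabine replicate 1, and H2-Ab1, a class II chain, had 0.15 ± 0.65. The standard errors of these 2 genes leave differences of more than 1 log2 unit in either direction undetected. Checkpoint genes gave 7 of 12 folds above 0 and a median of 0.05, or 5 of 12 and -0.07 without Gemcitabine replicate 1, with Tnfrsf14 as the only gene at an unadjusted p under 0.05. Ceacam1, an adhesion molecule of epithelium and activated T cells, had 0.84 ± 0.42 (unadjusted p = 0.0569), Cd47, the signal that protects cells from phagocytosis, -0.32 ± 0.17 and Cd276, the B7 family ligand, -0.39 ± 0.21.

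NF-kB and inflammatory cytokine genes gave 18 of 27 folds above 0 with a median of 0.10. Csf2, the growth factor GM-CSF, stood at 18.3, 107, 18.1 and 29.1 scaled counts in Gemcitabine tumours and at 24.8, 8.14, 21.8, 19.4 and 21.04 in Vehicle tumours, a fold of 1.15 ± 0.52 (unadjusted p = 0.0331). Gemcitabine replicate 2 alone was far above the Vehicle tumours. Tnf and Il1a, cytokines of early inflammation, had 0.51 ± 0.29 and 0.71 ± 0.41, and Rela, a subunit of NF-kB, -0.40 ± 0.23. Toll-like receptor genes gave 13 of 22 folds above 0 with a median of 0.11. The only one at an unadjusted p under 0.05 was the adaptor Traf6, which was lower. Ly86 and Cd180, partners in endotoxin sensing on B cells and macrophages, had 0.65 ± 0.35 and 0.95 ± 0.52. Complement genes gave 14 of 21 above 0 with a median of 0.14. Cd55, which protects cells from complement, stood at 108, 159.9, 126 and 115 scaled counts in Gemcitabine tumours and at 95.5, 66.96, 109.9, 91.6 and 63.9 in Vehicle tumours. Gemcitabine replicate 1 alone lay within the Vehicle range, and the fold was 0.57 ± 0.26 (unadjusted p = 0.0379).

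Genes of cell cycle, p53 and apoptosis, which DNA damage can alter, had a median fold near 0. Of 29 tested, 11 had a fold above 0, the median was -0.09 and none had an unadjusted p under 0.05. The lowest fold of the list was that of Tfrc, described above. Cdkn1a, the p53 target p21, stood at 205, 234, 237 and 229 scaled counts in Gemcitabine tumours and at 136, 161, 183, 249 and 351 in Vehicle tumours. The Gemcitabine tumours were tight and lay inside the Vehicle range, and the fold was 0.07 ± 0.31. Birc5, the mitosis gene survivin, had 0.47 ± 0.34, and Trp53 had 0.23 ± 0.32, or -0.11 without Gemcitabine replicate 1. Nucleotide and adenosine metabolism gave 5 of 8 folds above 0 with a median of 0.08, Ada, adenosine deaminase, having 0.38 ± 0.26.

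Tumour cell, stromal and vessel genes had list medians close to the median of all genes. The list of epithelial and tumour cell genes gave 9 of 20 folds above 0 and a median of -0.05, with the adhesion genes Epcam at 0.69 ± 0.57 and Cdh1 at -0.11 ± 0.34. This list also holds genes that are not particular to epithelium, such as the vessel gene Cdh5, Cdkn1a and Spp1. Epcam stood at 2074, 3470, 1932 and 3075 scaled counts in Gemcitabine tumours and at 1092, 1290, 2452, 2521 and 797 in Vehicle tumours, so the groups overlapped. Stromal and matrix genes gave 10 of 29 above 0 and a median of -0.11, with the collagen gene Col1a1 at -0.35 ± 0.67 and the mesenchymal filament gene Vim at -0.64 ± 0.43, and Pdgfc was the only one at an unadjusted p under 0.05. Endothelial genes gave 16 of 22 above 0 and a median of 0.10, with the vessel adhesion gene Pecam1 at -0.14 ± 0.34. Integrins gave 8 of 13 above 0 and a median of 0.22, or -0.02 without Gemcitabine replicate 1. Markers of other organs varied between tumours. The 17 liver markers summed to 559 to 1212 scaled counts in Gemcitabine tumours and 697 to 1436 in Vehicle tumours. The 7 lung markers summed to 255 to 656 in Gemcitabine tumours and 197 to 2028 in the 5 Vehicle tumours, highest in Vehicle replicate 5, and to 23215 in the Vehicle tumour left out. Cxcl15 of this list reached at most 38.2 scaled counts in the 5 Vehicle tumours, in replicate 2, so it does not make up the sum of replicate 5. The list also holds Marco and Chil3, which are on the macrophage and monocyte list too.

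Other tumours of the series carry values for gemcitabine in animals outside the comparison above, in the same fit and so with the same estimate of spread. Gemcitabine added to TP-0903 (a small molecule against Axl), to a PD1-blocking antibody and to both was set against the same regimens without it, 14 tumours against 12, as the mean of the 3 folds. Drug and cartridge are largely confounded here: all 4 TP-0903 tumours were on cartridge 1 and all 5 TP-0903+Gemcitabine tumours on cartridge 2, and all 4 Gemcitabine+anti-PD1 tumours were on cartridge 3 and all 4 Anti-PD1 tumours on cartridge 2. In these pairs drug and cartridge cannot be told apart within the pair. All 5 TP-0903+Gemcitabine+anti-PD1 tumours shared cartridge 3 with 3 of the 4 TP-0903+anti-PD1 tumours. No gene was called here either, and the smallest adjusted p was 0.236, while at an unadjusted p under 0.05 there were 21 higher genes (3.64%) and 45 lower genes (7.8%), so 66 in either direction (11.4%). With the cartridge as a block there were 31, of which 16 were among the 66. The difference between gemcitabine alone and gemcitabine added gave 12 genes at an unadjusted p under 0.05 (2.08%) and a smallest adjusted p of 0.988.

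Clec7a, Clec4n, Ppbp, Ms4a1 and Cd163 had an unadjusted p under 0.05 both alone and in the added setting, which is 5 of the 27 and 5 of the 66, beside 11.4% of all tested genes in the added setting. The sign was the same in each of the 5. Of their folds alone, Ms4a1 and Ppbp rest on Gemcitabine replicate 1, Clec4n on Gemcitabine replicate 2 and Cd163 on Vehicle replicate 5, without which the unadjusted p was 0.772, 0.284, 0.0666 and 0.242 in that order. Clec7a had an unadjusted p under 0.05 alone whichever tumour was left out. Clec7a had 0.61 ± 0.20 in the added setting (edgeR, unadjusted p = 0.00517), or 0.86 ± 0.37 with the cartridge as a block (unadjusted p = 0.0262), beside 1.11 ± 0.34 alone.
By arm, Clec7a averaged 125 ± 70.3 scaled counts with TP-0903+Gemcitabine against 85.4 ± 19.4 with TP-0903 (SD, n = 5 and 4), 139 ± 35.1 with Gemcitabine+anti-PD1 against 83.0 ± 55.0 with Anti-PD1 (n = 4 and 4), and 104 ± 37.1 with TP-0903+Gemcitabine+anti-PD1 against 72.9 ± 19.3 with TP-0903+anti-PD1 (n = 5 and 4). The mean was higher with gemcitabine in each of the 3 pairs, by about as much as the spread within an arm. Clec4n had 0.59 ± 0.25 in the added setting (unadjusted p = 0.0256), and Cd163 had -1.13 ± 0.38 (unadjusted p = 0.00619) beside -1.58 ± 0.68 alone. Ms4a1 had 1.28 ± 0.43 (unadjusted p = 0.00619) and Ppbp 1.28 ± 0.48 (unadjusted p = 0.0124). With the cartridge as a block the added folds were 1.03 ± 0.45 for Clec4n, -1.21 ± 0.71 for Cd163, 2.10 ± 0.71 for Ms4a1 and 1.72 ± 0.79 for Ppbp, and the unadjusted p of Cd163 became 0.102. Tfrc and Oas2 missed an unadjusted p of 0.05 alone, with folds of -0.66 and 0.53. Their added folds were -0.56 (edgeR, unadjusted p = 0.00934) and 0.44 (unadjusted p = 0.0221). With the cartridge as a block these became -0.61 ± 0.36 (unadjusted p = 0.0987) and 0.52 ± 0.34 (unadjusted p = 0.140).

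The genes named next had folds nearer to 0 in the added setting. These genes were named for their values in the comparison of gemcitabine alone, so a smaller fold elsewhere is built into the choice and no test of the difference is given for them. Mpo had 1.13 ± 0.65 in the added setting, or 1.99 ± 1.03 with the cartridge as a block, beside 4.95 ± 1.23 alone. In the arms without gemcitabine Mpo already averaged 219 ± 290 scaled counts with TP-0903+anti-PD1 and 80.8 ± 56.2 with TP-0903 (SD, n = 4 each). Camp had 0.52 ± 0.53 added, Tal1 0.21 ± 0.25, Isg15 0.34 ± 0.26 and Lyz2 0.34 ± 0.26, each positive and smaller than alone. Itgae had -0.14 ± 0.16 and Il3ra -0.06 ± 0.11 added, beside -0.83 ± 0.27 and -0.56 ± 0.18 alone. Klrc1 had 0.14 ± 0.37 added. Of the tested type I interferon genes 10 of 27 had a fold above 0 in the added setting, with a median of -0.04. Of the tested neutrophil genes 8 of 13 had a fold above 0 there, with a median of 0.19. At an unadjusted p under 0.05, 1 neutrophil gene was higher and 1 lower. Complement and liver genes had medians of -0.59 and -1.51 in the added setting, beside 0.14 and -0.22 alone. The arms without gemcitabine in that setting include TP-0903 replicate 3, a tumour with an unusual lane. Its ratio of housekeeping genes to positive controls was 0.151, against 0.386 to 0.418 in the other tumours of the TP-0903 arm. The 2 medians were not taken without that tumour, and its part in them was not tested. No effect of gemcitabine on complement or liver genes is read from these medians.

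**Figure D5:**
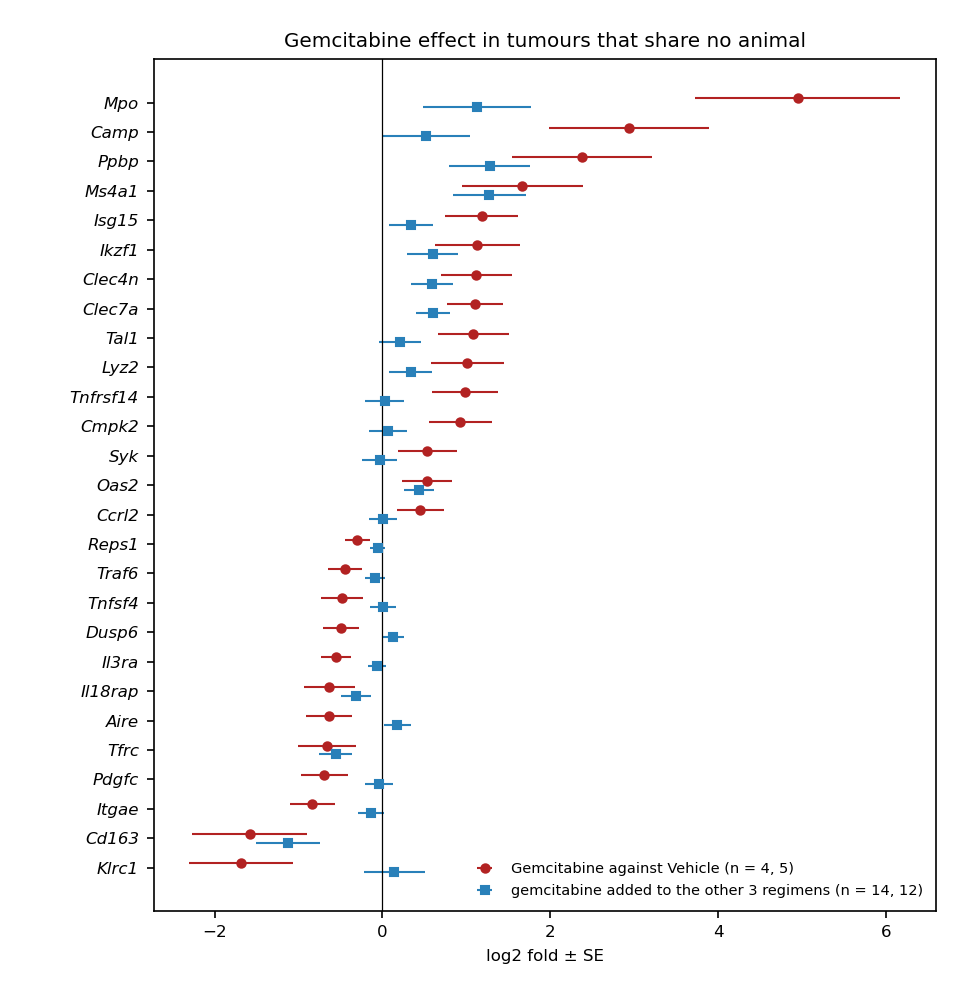
Log2 fold ± SE (x axis) of the 27 named genes chosen by smallest p or lack of overlap, for Gemcitabine against Vehicle (red circles, 4 and 5 tumours) and for gemcitabine added to the other 3 regimens (blue squares, 14 and 12 tumours). Most blue squares lie nearer to 0 than the red circles, which were chosen for their distance from 0. Klrc1, Aire, Dusp6, Tnfsf4 and Syk change sides in the added setting, and the other genes keep their side.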

How the data were processed

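The values were raw nCounter counts. The authors deposited a table of whole-number counts per gene and tumour. It is raw, since 27720 of 27720 values equal the counts in the deposited lane report, although the labels' design text speaks of values normalized to positive controls and housekeeping genes. The lane report, which the authors deposited as lane attributes of other kinds beside counts, supplied 8 negative controls, 6 positive controls and the cartridge, per the file headers. Counting software is not given in the sources used here.

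Each count was divided by the lane's housekeeping factor (20 genes). A gene was tested where it exceeded background, 2 SD over the mean of the lane's negative controls, in 4 or more of the 9 tumours, which left 577 of 750 genes and 173 untested. edgeR 4.0.16 (R 4.3.3, limma 3.58.1) fitted 35 libraries, all but Vehicle replicate 3, in 8 arms with a robust quasi-likelihood fit, two-sided, with Benjamini-Hochberg adjustment within each contrast, calling genes at 0.05. The common biological coefficient of variation was 0.407. DESeq2 1.42.0, limma with pseudocounts 1 and 20, other scalings and filters, batch terms and left-out tumours served as alternatives, and the fitting code was tested on simulated data. P-values set each fold against the spread between tumours within an arm, estimated over all 35 libraries and not from the 9 tumours alone. With only the Gemcitabine and Vehicle tumours in the fit, the standard error was 0.21 for Clec7a and 0.58 for Tal1, beside 0.34 and 0.42. Depth limits the genes near background: at these totals counting error is small for abundant genes.

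The tumours, the gene lists and the naming rule were chosen with earlier results of these data known. Genes named were the 12 smallest p in each direction, the 10 largest folds without overlap, a fixed set of immune and tumour genes (1 of them not reported here), and up to 4 genes of smallest p per list. A few more are marked as named after their values were seen. Of the 750 genes 727 matched RefSeq by accession, 9 under another symbol, and the panel's symbols are kept. Promoter windows are RefSeq's (GRCm38.p6).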

Additional observations from a re-analysis of the deposited data

Results flagged for a closer look

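Single tumours that stood far from the others of their group were looked for in 56 named genes, which gave 112 gene and group checks, and 16 were found (Dixon's 95% limit). Chance would give about 5% of such checks for normally distributed values of genes chosen without regard to them. Here many of the genes were chosen for their values in these tumours, and the counts were not logged. No excess over chance can thus be read from the 16. Gemcitabine replicate 1 was the highest of its arm for Mpo (945 scaled counts), Ppbp (480.2), Tal1 (115), Ms4a1 (243) and Ikzf1 (98.0), genes of neutrophil precursors, platelets, red cell precursors and B cells. Gemcitabine replicate 2 was the highest for Clec7a (176), Lyz2 (8230) and Il18rap (57.5). Gemcitabine replicate 3 was the lowest for Foxp3 (5.78), a level at background. Among Vehicle tumours, replicate 6 was the highest for Klrc1 (257), Tfrc (916), Vim (7276) and Foxp3 (16.2). Vehicle replicate 5 was the highest for Pdgfc (849.5), and replicate 2 for Cxcl9 (156) and Cxcl15 (38.2). Vehicle replicate 3, which is outside the comparison, held 11754 scaled counts of Cxcl15 and 2148 of Lamp3. No explanation of these tumours was tested.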

How the results depend on the processing

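Gemcitabine against Vehicle called 0 genes and kept that count under most alternatives. DESeq2 called 1 gene, Mpo, and 2 genes, Mpo and Tal1, were called with the cartridge as a block and also with the shared cartridge only, where Gemcitabine replicates 1 and 2 alone face the Vehicle tumours. Gemcitabine added to the other regimens called 7 genes, all lower, when lanes were scaled to positive controls only, which moved the median fold of all genes there to -0.21. It called 1 gene with no filter on low counts and 1 with the filter taken over 35 lanes. Genes at an unadjusted p under 0.05 numbered 27 for gemcitabine alone, 13 without Gemcitabine replicate 1, 15 with a filter in all 9 lanes, 41 with the cartridge as a block and 51 with Vehicle replicate 3, whose inclusion put the median of all genes at -0.12. For gemcitabine added they numbered 66, against 31 with the cartridge as a block, 38 with limma after background subtraction and 42 and 44 with limma at pseudocounts of 1 and 20. Without TP-0903 replicate 3 in the fit they numbered 39 for gemcitabine alone and 56 for gemcitabine added. For the difference they numbered 12 and ran from 7 without Gemcitabine replicate 1 to 29 with Vehicle replicate 3.

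Of 1281 folds of 48 named genes under alternatives, 35 turned, in 17 genes. With Vehicle replicate 3 the fold was -0.16 for Cmpk2, -0.74 for Lyz2, -0.10 for Oas2, -0.91 for Ccrl2, -0.086 for Cd274, -0.76 for H2-K1, -0.60 for H2-Ab1, -0.45 for Cdkn1a and -0.14 for Trp53, with the lung transcripts of that tumour beside them. Positive controls only gave -0.042 for H2-K1 and -0.00908 for H2-Ab1. The title digit as a block gave -0.016 for H2-K1, 0.050 for Mertk and 0.018 for Pecam1, and the lane name's suffix as a block, added after the data were seen, gave -0.10 for H2-K1. Mertk had 0.011 with limma at a pseudocount of 1, 0.086 with the cartridge as a block and 0.086 with the shared cartridge only. Leaving out 1 tumour at a time, the fold ran from -0.057 to 1.38 for Tal1 and from -0.20 to 2.03 for Ms4a1, lowest without Gemcitabine replicate 1. It ran from -1.95 to 0.034 for Klrc1, highest without Vehicle replicate 6. The ranges were -0.57 to 0.031 for Arg1, -0.53 to 0.26 for Cxcl10, -0.097 to 0.39 for H2-K1, -0.063 to 0.63 for H2-Ab1 and -0.20 to 0.17 for Mertk. They were -0.061 to 0.31 for Cdkn1a, -0.11 to 0.44 for Trp53 and -0.33 to 0.30 for Cxcl15. Apart from the effect of 1 tumour more or less, the cause was not tested.

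No paired analysis was possible because the labels give no replicate numbers. With 4 and 5 tumours and a median standard error of 0.32, small folds are not detectable. Gemcitabine replicate 2 had the highest background after scaling, 26.1 scaled counts, so its low values are the least certain. Cartridge and lane suffix cannot be told apart from each other within the Gemcitabine arm.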
